A study of Mus musculus with 15 samples.

Results

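The slow-fibre contractile genes are 10 genes of the slow and oxidative muscle fibre: Myl3, Myl2, Myh7, Myh2, Tnni1, Tnnt1, Tnnc1, Tpm3, Myoz2 and Atp2a2. They were measured in mouse knee joint synovium, from naive mice and from mice with collagen-induced arthritis (CIA). Members were the probe sets whose single gene symbol in the platform annotation is 1 of the 10, which gave 21 of the 45101 probe sets on the array. Tpm3 has 5 of these probe sets, Atp2a2 has 6, Myl3 has 3, and the other 7 genes have 1 each. A further 2 probe sets carry the symbols of both Myh7 and Myh6 and were left out. The 10 genes were chosen by measured values: most of them were far lower in severely swollen joints than in naive ones on these same arrays. Levels in those 2 groups are therefore given as a description, with no test.

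The study hybridized total RNA of 15 synovium samples to Affymetrix mouse arrays, 1 array per sample, in 5 groups of 3. The groups are healthy naive joints and CIA joints with no, mild, moderate or severe swelling. In CIA, joint inflammation follows an immune response to type II collagen. The dose was 100 µg, given in complete Freund's adjuvant on day 0, and 100 µg again, into the peritoneum, on day 21. The labels attach this immunization text to the naive samples as well, and their source name calls the same joints healthy. Strain, age and sex are not given in the sources used here, and neither is whether the 3 arrays of a group came from separate mice. The p-values below then measure the spread between these arrays only.

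Skeletal muscle fibres differ in the protein isoforms of their contractile machinery. Slow (type I) fibres use the heavy chain of Myh7, the ventricular-type light chains of Myl2 and Myl3, the slow troponins of Tnni1, Tnnt1 and Tnnc1, and the slow calcium pump of Atp2a2, and they rely on oxidative metabolism. The same light chains and troponin C are used by the heart's ventricle. Synovium itself is a thin lining of fibroblasts and macrophages and holds no muscle fibres.

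The label holds for most of the list and not for all of it. Myh2 encodes the heavy chain of fast oxidative (type IIa) fibres, not of slow ones. Tpm3 makes the slow-muscle tropomyosin and, from another start, the tropomyosins of cells that are not muscle. Atp2a2 makes a muscle pump and another form present in nearly all cells. Of the heart markers Myh6, Myl7, Tnni3 and Nppa, 0 of 4 lay above the array's 40th percentile on 3 or more arrays. Their summed signal was between 22.1 and 67.7 on all 15. A wider list of 7 cardiac genes held 3 that did lie above it on 3 or more arrays, Actc1, Tnnt2 and Myl4. The labelled tissue was only part of what the arrays read. Of the synovial fibroblast markers, 5 of 5 lay above that percentile on 3 or more arrays, and their summed signal was 3490 or more on every array. Fast skeletal muscle genes were read as well, and were among the brightest of all.

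Promoter windows of RefSeq (GRCm38.p6), running from 250 bases before to 50 bases after each start site, were matched by symbol for 9 of the 10 members, as 13 windows. Those of Myoz2, Tnnc1 and Myl3 are printed as examples of members with a muscle motif in the window. Both Tpm3 windows are printed because the probe sets of Tpm3 moved in opposite directions. Sequences run 5′ to 3′ on the gene's strand, and capitals mark a MEF2 site or an MCAT element (CATTCC, read on either strand).
Myoz2, chr3:123034938-123035237, minus strand: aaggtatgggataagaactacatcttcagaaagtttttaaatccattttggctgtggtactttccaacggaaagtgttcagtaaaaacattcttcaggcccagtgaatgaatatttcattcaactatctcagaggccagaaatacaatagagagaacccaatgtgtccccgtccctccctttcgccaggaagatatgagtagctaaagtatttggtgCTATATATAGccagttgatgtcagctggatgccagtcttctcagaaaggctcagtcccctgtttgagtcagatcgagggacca
Tnnc1, chr14:31208062-31208361, plus strand: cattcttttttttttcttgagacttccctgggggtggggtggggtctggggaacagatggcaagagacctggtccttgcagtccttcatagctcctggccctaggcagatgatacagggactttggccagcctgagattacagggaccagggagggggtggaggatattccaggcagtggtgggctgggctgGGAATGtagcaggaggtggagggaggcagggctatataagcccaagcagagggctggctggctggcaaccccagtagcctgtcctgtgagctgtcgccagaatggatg
Myl3, chr9:110763428-110763727, plus strand: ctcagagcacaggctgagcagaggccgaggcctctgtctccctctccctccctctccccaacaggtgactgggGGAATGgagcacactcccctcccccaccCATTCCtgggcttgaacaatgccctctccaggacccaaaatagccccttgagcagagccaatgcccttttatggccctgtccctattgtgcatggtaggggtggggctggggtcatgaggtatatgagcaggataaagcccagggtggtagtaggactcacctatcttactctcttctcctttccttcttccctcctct
Tpm3, upstream window, chr3:90072401-90072700, plus strand: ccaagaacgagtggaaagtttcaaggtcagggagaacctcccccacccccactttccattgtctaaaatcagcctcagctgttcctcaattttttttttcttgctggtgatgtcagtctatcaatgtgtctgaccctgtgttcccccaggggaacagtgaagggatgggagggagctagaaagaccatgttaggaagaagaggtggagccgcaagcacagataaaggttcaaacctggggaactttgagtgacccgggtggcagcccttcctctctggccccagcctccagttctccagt
Tpm3, downstream window, chr3:90079271-90079570, plus strand: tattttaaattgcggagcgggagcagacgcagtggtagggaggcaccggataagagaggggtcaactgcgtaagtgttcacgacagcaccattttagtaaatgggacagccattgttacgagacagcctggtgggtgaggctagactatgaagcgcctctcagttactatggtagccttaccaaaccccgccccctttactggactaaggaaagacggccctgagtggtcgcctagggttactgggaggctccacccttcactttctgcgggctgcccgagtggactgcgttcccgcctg

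The capitals in the Myoz2 window lie at -33 to -24 from the start site, in the place where a TATA element usually sits. In Tnnc1 they lie at -58 to -53, and in Myl3 at -177 to -172 and at -149 to -144. Neither Tpm3 window held a match to the letters of the MEF2 site, of MCAT or of TATAAA. Both strands were read, and a stretch that fits several motifs counts for each. A MEF2 site was found in 1 of the 13 member windows and in 3.19% of all 32851 windows. MCAT was found in 3 windows (Myl3, Myh7, Tnnc1) against 14.7% of all windows, TATA in 3 (Myl2, Myh2, Tnnt1) against 13.6%, and the CArG box in 1 (Myl3) against 1.63%. The TATA matches lie at -216 to -211 in Myl2, at 11 to 16, after the start site, in Myh2 and at -30 to -25 in Tnnt1. The NFAT core GGAAA occurred in 11 of the 13 against 61.3% of all windows, and at least 2 E-boxes (CANNTG) in 9 against 39.6%. Windows of 1 gene can overlap, and a match is a description of letters, not of binding.

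The deposited values are MAS5 signals, linear brightness units that had the same trimmed mean on every array (150.0, leaving out 2% at each end). The median signal of the 45101 probe sets was between 36.3 and 47.6 per array, and arrays carry no read depth, so precision here rests on 3 arrays per group. The actin control probe sets read the 3′ and the 5′ end of 1 transcript, and the 3′ over the 5′ signal rises as RNA breaks. This ratio was 0.89 to 1.03 on naive arrays, 1.07 to 1.16 without swelling, 1.13 to 1.19 with mild, 1.19 to 1.27 with moderate and 1.21 to 1.27 with severe swelling. By group it was lowest in naive joints, where the members were highest. On replicates 1, 2 and 3 without swelling it was 1.16, 1.07 and 1.08, and the slow myosin Myh7 read 87.4, 763 and 65.5. On the mild replicates it was 1.13, 1.16 and 1.19, and Myh7 read 575, 503 and 35.7. In both groups the array with the lowest ratio had the highest Myh7. The order was not the same throughout, since replicate 3 without swelling had the lowest Myh7 of its group at 1.08. The part of this ratio in the results was not tested. In bulk samples fewer muscle fibres and less RNA per fibre cannot be told apart.

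The myosin genes of the list were bright on all 3 naive arrays and uneven in the joints without and with mild swelling. They were far lower than in naive joints with moderate and severe swelling. Myh7, the slow heavy chain, gave signals of 1373, 2704 and 1201 on naive replicates 1, 2 and 3. Without swelling it gave 87.4, 763 and 65.5, and with mild swelling 575, 503 and 35.7. It read 124, 44.6 and 104 with moderate and 124, 26.6 and 134 with severe swelling. All 12 CIA arrays thus lay below the lowest naive array, and replicate 2 without swelling and replicates 1 and 2 with mild swelling stood well above the other CIA arrays.

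The regulatory light chain Myl2 read 2564, 3230 and 2239 in naive joints and 168, 1964 and 464 in joints without swelling. With mild swelling it was 751, 717 and 93.7, with moderate swelling 150, 60.4 and 192, and with severe swelling 113, 62.9 and 167. The same arrays stood out as for Myh7. The essential light chain Myl3 (1428266_at) read 1541, 1883 and 1035 in naive joints, 83.2, 766 and 193 without swelling and 258, 381 and 39.0 with mild swelling. With moderate swelling its signals were 36.2, 47.9 and 41.4, below every array without swelling, and with severe swelling 37.8, 34.1 and 92.2. The other 2 Myl3 probe sets followed it over the 15 arrays (Pearson r 0.98 to 0.99 among the 3, a description).

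Myh2, the type IIa heavy chain, had a different order within the group without swelling. Its naive signals were nearly alike, at 7997, 7847 and 7781, and those without swelling were 502, 4754 and 7010.1. Replicate 3 of that group, low for Myh7, was thus close to the naive level for Myh2, 14.0 times replicate 1. Mild swelling gave 2274, 2562 and 412, moderate swelling 416, 580.1 and 523, and severe swelling 517, 668 and 785. All 3 severe arrays lay above replicate 1 without swelling, so those groups overlapped.

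**Figure D1:**
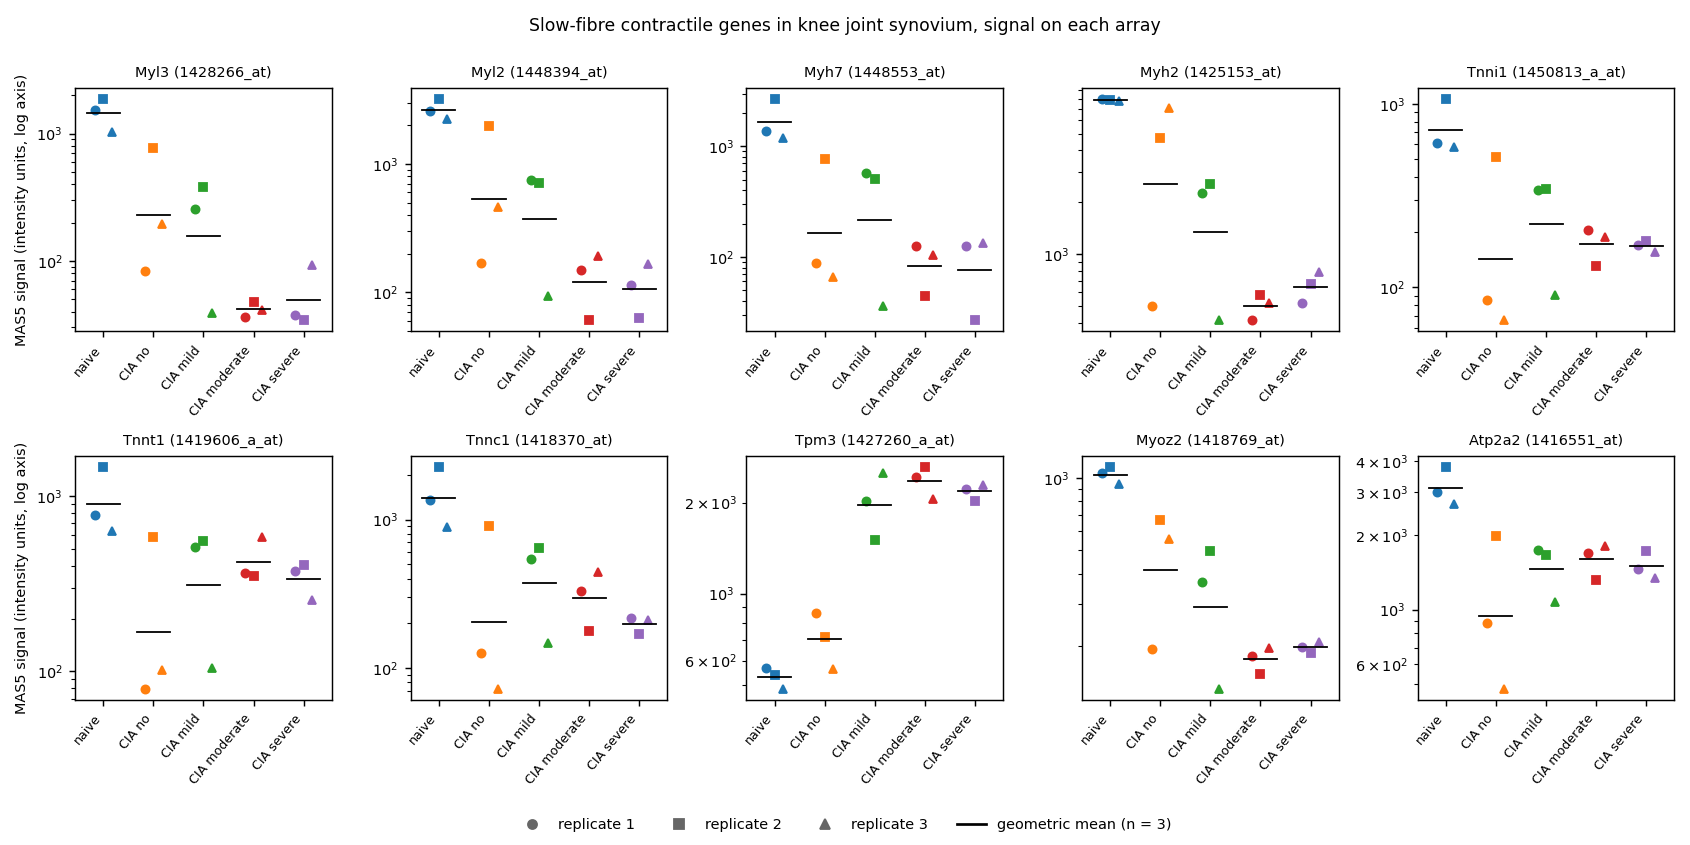
Signal of the 10 slow-fibre contractile genes (1 probe set each, MAS5 intensity units on a log axis) on each of the 15 arrays, by group; circles, squares and triangles are replicates 1, 2 and 3 and the bar is the geometric mean of 3. Replicate 2 without swelling (Myh7 763) and replicates 1 and 2 with mild swelling (Myh7 575 and 503) sit above the rest of the CIA arrays for Myh7, Myl2 and Myl3, whereas for Myh2 replicate 3 without swelling (7010.1) is the highest CIA array. Tpm3, by 1427260_a_at, is higher with mild, moderate and severe swelling than in the other groups.

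The troponin genes, which hold the calcium switch of the thin filament, were lowest on 2 arrays without swelling and on mild replicate 3, and stood between these and the naive arrays with more swelling. Troponin I (Tnni1) read 608, 1067 and 578 in naive joints, 85.2, 515 and 65.9 without swelling, and 339, 344 and 90.9 with mild swelling. It read 204, 130 and 188 with moderate swelling and 170, 179 and 155 with severe swelling. Every moderate and severe array was above replicates 1 and 3 without swelling and below replicate 2.

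Troponin T (Tnnt1) read 779, 1461 and 631 in naive joints and 79.8, 581 and 102 without swelling. It was 512, 555 and 105 with mild, 365, 348 and 579 with moderate and 373, 402 and 257 with severe swelling. Troponin C (Tnnc1) gave 1362, 2268 and 891 in naive joints and 126, 911 and 72.3 without swelling. With mild swelling Tnnc1 was 538, 638 and 148, with moderate 329, 176 and 440.2, and with severe 217, 170 and 208. For Tnnc1 the groups naive and without swelling overlapped, since replicate 2 without swelling (911) lay above naive replicate 3 (891).

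Myoz2 encodes calsarcin-1, a slow-fibre protein of the Z-disc that binds calcineurin. It read 1043, 1110.0 and 940.2 in naive joints, 195, 665 and 556 without swelling and 369, 499 and 133 with mild swelling. With moderate swelling it was 182, 154 and 197 and with severe swelling 198, 187 and 209. As for Myh2, replicates 2 and 3 without swelling were both high and replicate 1 was low. Over the 15 arrays Myoz2 and Myh2 had r = 0.97, Tnni1 and Tnnc1 0.98, and Myl3 and Myl2 0.98, while Myh2 and Tnnt1 had 0.47. Among the 36 pairs of members without Tpm3, r ranged from 0.36 to 0.98 with a median of 0.83. These correlations are across arrays that share group differences and scaling, and are a description.

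Probe sets of Tpm3 fell into 2 kinds. The probe set 1449996_a_at read 653, 1110 and 523 in naive joints, 45.7, 391 and 52.2 without swelling, 172, 224 and 29.8 with mild, 56.4, 33.7 and 40.2 with moderate and 12.9, 14.9 and 37.9 with severe swelling. Within the naive group and the groups without and with mild swelling its arrays had the order of those of Myl3 (1428266_at). Over the 15 arrays its r with the other 9 members was 0.67 to 0.97, and 0.97 with Myl3. Another probe set, 1449997_at, moved with it (r = 0.97), from 451, 906 and 477 in naive joints to 26.5, 8.7 and 18.6 with severe swelling.

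The other 3 Tpm3 probe sets went the other way. The brightest of them on average, 1427260_a_at, which stands for the gene in the tests, gave 567, 536 and 485 in naive joints and 866, 721 and 564 without swelling. It rose to 2027, 1510.5 and 2500.1 with mild swelling, and was 2428, 2628 and 2063 with moderate and 2224, 2029 and 2297 with severe swelling. The mild, moderate and severe arrays were all above every naive array and every array without swelling. Its companions 1427567_a_at and 1436958_x_at went from naive means of 99.1 ± 20.8 and 41.1 ± 4.18 (SD, n = 3) to severe means of 503 ± 109 and 1103 ± 620. Between the 2 kinds r was -0.74 to -0.61 over 6 pairs. Which transcript each probe set reads was not matched here.

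Atp2a2, the calcium pump of the sarcoplasmic reticulum, was split as well, with smaller steps. The probe set 1416551_at read 2991, 3799 and 2691 in naive joints and 883, 1994 and 478 without swelling. It was 1740.2, 1662 and 1076 with mild, 1704, 1320.3 and 1820.3 with moderate, and 1456, 1724 and 1341 with severe swelling. Every CIA array lay below the lowest naive array, and the lowest values were in joints without swelling. The probe set 1452363_a_at followed it (r = 0.96). In contrast 1427250_at stayed at 506, 564 and 508 in naive and 392, 488 and 322 in joints without swelling, then stood at 1300.0, 1003 and 1391 with mild, 1607, 1718 and 1436 with moderate and 1676, 1400 and 1727 with severe swelling. The probe sets 1437797_at and 1427251_at correlated with it (r 0.94 and 0.76), and 1443551_at did not pass the filter on low signals.

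**Figure D2:**
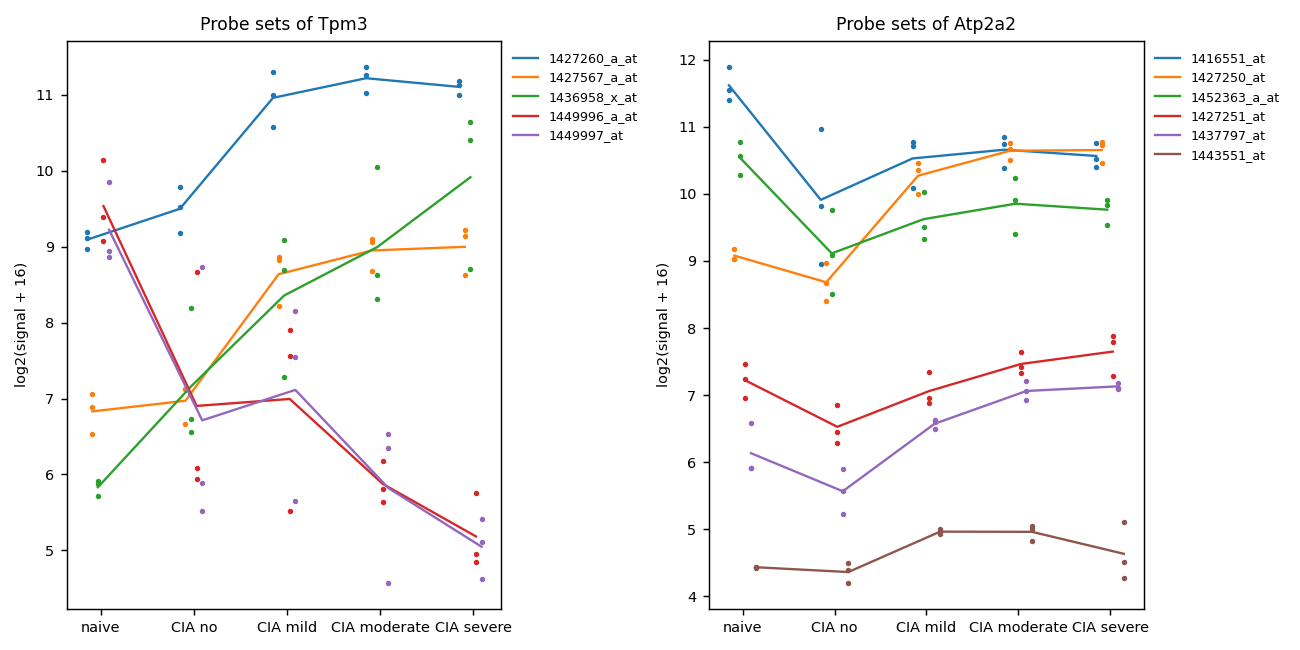
Level of each probe set of Tpm3 (left, 5 probe sets) and Atp2a2 (right, 6 probe sets) as log2(signal + 16), by group; points are arrays (3 per group) and lines join the group means. For Tpm3, 2 probe sets are lower with severe swelling than in naive joints and 3 are higher; for Atp2a2, 1416551_at and 1452363_a_at are lower and 1427250_at is higher.

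Arrays of 1 group differed by larger factors in the slow members than in fast-fibre genes, in joints without and with mild swelling. Across the 10 members, the highest over the lowest array without swelling was 8.50 at the median (1.54 to 14.0), and 4.80 (1.62 to 16.1) with mild swelling. In the naive, moderate and severe groups the same ratio had medians of 1.63, 1.48 and 1.41. For 14 genes of the fast-fibre machinery (Myh1, Myh4, Myl1, Mylpf, Tnni2, Tnnt3, Tnnc2, Tpm1, Actn3, Mybpc2, Myoz1, Atp2a1, Pvalb and Casq1) it was 1.06 (1.01 to 1.21) without swelling and 1.08 (1.01 to 1.66) with mild swelling. All 14 fast genes were among the 100 brightest of the 45101 probe sets in naive joints, where an array can compress differences. They were also named from earlier results of these arrays, so the contrast is a description.

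As a mean of log2(signal + 16) relative to the naive mean, the members were at -2.85, -0.57 and -2.34 on the 3 arrays without swelling, where the fast list was at 0.19, 0.17 and 0.18. On the mild arrays the members were at -1.11, -1.03 and -2.95 and the fast list at -0.40, -0.43 and -0.50. Members lay between -2.63 and -2.12 on the 6 moderate and severe arrays, and fast genes between -0.99 and 0.06. On this mean replicates 1 and 3 without swelling and replicate 3 with mild swelling lay within or below the range of the severe arrays (-2.60 to -2.22). Without Tpm3 and Atp2a2, a choice made after seeing the data, the arrays without swelling were at -3.42, -0.68 and -2.59, mild replicate 3 at -3.77 and the severe arrays at -3.38 to -2.89. Replicate 3 without swelling then lay above all 3 severe arrays.

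Marker lists of other cell types did not all line up with these arrays. The summed signal of 5 fast-fibre markers was 63910, 64460 and 62960 on the 3 arrays without swelling, and that of 8 myogenic and immature muscle markers was 2948, 997 and 893. Neutrophil markers (4 of 4 above the filter) summed to 2325, 800.0 and 315 without swelling, 3960, 4006 and 8410 with mild swelling, with 57.2 to 74.7 in naive joints, 6232 to 9337 with moderate and 8247 to 11440 with severe swelling. Markers of synovial fibroblasts summed to 6115, 7013 and 3490 without swelling, to 5070 to 5614 in naive joints and to 18980 to 27490 with severe swelling. Mild replicate 3, the array lowest in slow members, was the mild array with the most neutrophil signal. Replicate 1 without swelling, the lowest of its group in slow members (-2.85), also had the most neutrophil signal of its group. Replicate 3 without swelling, in contrast, was low in slow members with the least neutrophil signal of its group. The part of these cells in the result was not tested.

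**Figure D3:**
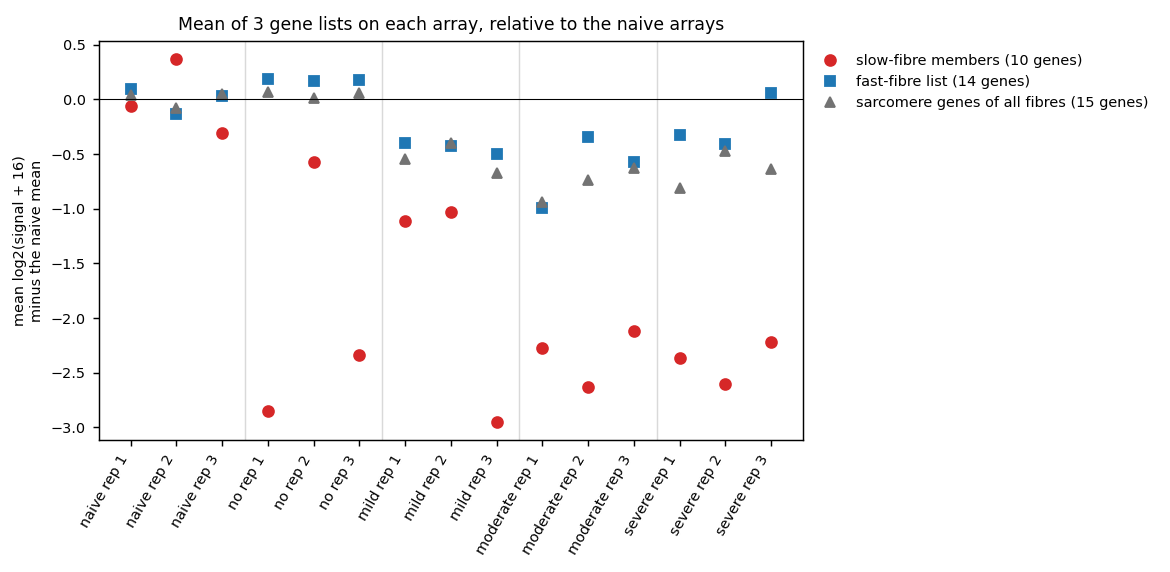
Mean log2(signal + 16) of the 10 slow-fibre members (circles), the 14 fast-fibre genes (squares) and 15 sarcomere genes of all fibres (triangles) on each array, minus the mean of the naive arrays. Slow members are at -2.85 and -2.34 on replicates 1 and 3 without swelling and to -2.95 on mild replicate 3, while the fast list stays at 0.19, 0.18 and -0.50 there.

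Against naive joints, the joints without swelling had lower members with 1 exception, Tpm3, on the probe set that stands for each gene. The log2 differences in the limma fit were -3.15 ± 0.88 (SE) for Myh7, -2.65 ± 0.68 for Tnnc1, -2.53 ± 0.67 for Myl3, -2.27 ± 0.62 for Tnnt1, -2.25 ± 0.75 for Myl2 and -2.17 ± 0.56 for Tnni1. Atp2a2 differed by -1.71 ± 0.35, Myh2 by -1.61 ± 0.74, Myoz2 by -1.27 ± 0.40 and Tpm3 by 0.41 ± 0.18. The Tpm3 probe sets of the other kind, 1449996_a_at and 1449997_at, differed by -2.63 ± 0.63 and -2.51 ± 0.74. The median over the members was -2.21, beside -0.01 over all 14310 genes tested. In 8 of the 10 genes the 3 arrays without swelling lay below all 3 naive arrays, which was so for 14.2% of all genes. The naive arrays helped to choose these genes, so no test was made. At the same step 0 of the 14 fast genes were called by limma in either direction (0 at an unadjusted p under 0.05, beside 3.32% of all genes called), with a median of 0.19 (0.01 to 0.26 over the other scalings of the arrays).

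Severely swollen joints, whose values chose the members, differed from naive ones by -4.46 ± 0.67 for Myl3, -4.44 ± 0.75 for Myl2, -4.11 ± 0.88 for Myh7 and -3.57 ± 0.74 for Myh2. In mean signal these are 27.2, 23.4, 18.6 and 12.0 times less than in naive joints. Smaller differences were those of Tnnc1 (-2.73 ± 0.68), Myoz2 (-2.29 ± 0.40), Tnni1 (-2.01 ± 0.56), Tnnt1 (-1.37 ± 0.62) and Atp2a2 (-1.05 ± 0.35). Tpm3 was higher by 2.01 ± 0.18 on 1427260_a_at, the probe set that stands for it. Its probe sets of the other kind, 1449996_a_at and 1449997_at, differed by -4.35 ± 0.63 and -4.17 ± 0.74. The groups did not overlap in 9 genes that were lower (26.0% of all genes) and 1 that was higher (36.0%), from which nothing is read. Between severe and moderate swelling the members differed by -0.55 to 0.36, all within their SE, and 0 member groups stood apart (4.10% of all genes were lower and 6.95% higher without overlap).

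Comparisons among joints with no, mild and moderate swelling were tested. Their differences use neither naive nor severe arrays, but the fit takes its spread from all 15 arrays, including those that chose the members. With moderate swelling, limma called 4 members lower than without swelling and 1 higher, at a Benjamini-Hochberg adjusted p under 0.05 over all genes; 22.0% of the 14310 genes were called lower and 31.2% higher. The lower ones were Myh2, by -2.32 ± 0.74 (adjusted p = 0.0151), Myl3, by -2.14 ± 0.67 (adjusted p = 0.0137), Myl2, by -2.02 ± 0.75 (adjusted p = 0.0339), and Myoz2, by -1.17 ± 0.40 (adjusted p = 0.0207). Tpm3 was higher by 1.72 ± 0.18 (adjusted p = 1.71e-06). Fitted on the 9 arrays of these 3 groups alone, limma called 2 lower, Myl3 (adjusted p = 0.0314) and Myh2 (adjusted p = 0.0414), and not Myl2 (adjusted p = 0.068) or Myoz2 (adjusted p = 0.0527). The list was picked for being low in other arrays. Of the 4 called on all 15 arrays, the groups stood apart only in Myl3, which counts as 1 of 10 genes beside 25.2% of all genes.

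The troponins and Myh7 gave no call at that step. Myh7 differed by -0.89 ± 0.88 with a 95% interval of -2.76 to 0.98, Tnni1 by 0.19 ± 0.56 (-0.99 to 1.38), Tnnc1 by 0.46 ± 0.68 (-0.98 to 1.90), Tnnt1 by 1.21 ± 0.62 (-0.10 to 2.51) and Atp2a2 by 0.75 ± 0.35 (0.01 to 1.49, adjusted p = 0.0834 in limma). The median member difference was -0.35, beside 0.09 over all genes, and it was 0.18, beside 0.60, when the arrays were scaled on the hybridization controls.

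The calls rested on single arrays without swelling. Without replicate 2 of that group, 0 members were called lower and 5 higher, namely Tnnt1 (2.04, adjusted p = 0.00434), Tnnc1 (1.47, 0.0258), Atp2a2 (1.28, 0.00075), Tnni1 (1.04, 0.0473) and Tpm3, while Myh2 was at -1.88 (0.0694), Myl3 at -1.32 (0.0871), Myl2 at -1.10 (0.201) and Myoz2 at -0.85 (0.107). Without replicate 3 of that group only Myl3 was called lower, and Myl2 was at -2.13 (0.0571), Myh2 at -1.60 (0.0925) and Myoz2 at -0.98 (0.0854). Leaving out moderate replicate 2 ended the calls of Myl2 (-1.59, 0.131) and Myoz2 (-1.08, 0.0631), and leaving out moderate replicate 1 that of Myl2 (-2.15, 0.0553). Tpm3 was called higher each time 1 array was left out, and not when its 5 probe sets were averaged.

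With mild swelling against none, limma called 0 members lower (0 at an unadjusted p under 0.05) and Tpm3 higher, by 1.46 ± 0.18 (adjusted p = 4.11e-05), beside 15.5% of all genes called lower and 22.9% higher. The remaining 9 members ranged from -0.93 ± 0.74 for Myh2 to 0.81 ± 0.62 for Tnnt1. Without replicate 2 of the joints without swelling, Tnnc1 (1.80, adjusted p = 0.0133), Tnnt1 (1.64, 0.0232), Tnni1 (1.39, 0.0165) and Atp2a2 (1.15, 0.00334) were called higher too. Without replicate 1 of that group Myh2 (-2.09, 0.00733) and Myoz2 (-1.01, 0.0338) were called lower.

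From mild to moderate swelling limma called 0 members in either direction, 1 (Myl3, lower) having an unadjusted p under 0.05, and called 3.38% of all genes lower and 3.21% higher. The differences were -1.66 ± 0.67 for Myl3, -1.52 ± 0.75 for Myl2, -1.40 ± 0.74 for Myh2 and -1.32 ± 0.88 for Myh7. Without mild replicate 3 these 4 and Myoz2 were called lower: Myl3 by -2.52 (adjusted p = 0.0119), Myh7 by -2.46 (0.0444), Myl2 by -2.44 (0.0276), Myh2 by -2.23 (0.0471) and Myoz2 by -1.21 (0.0286).

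**Figure D4:**
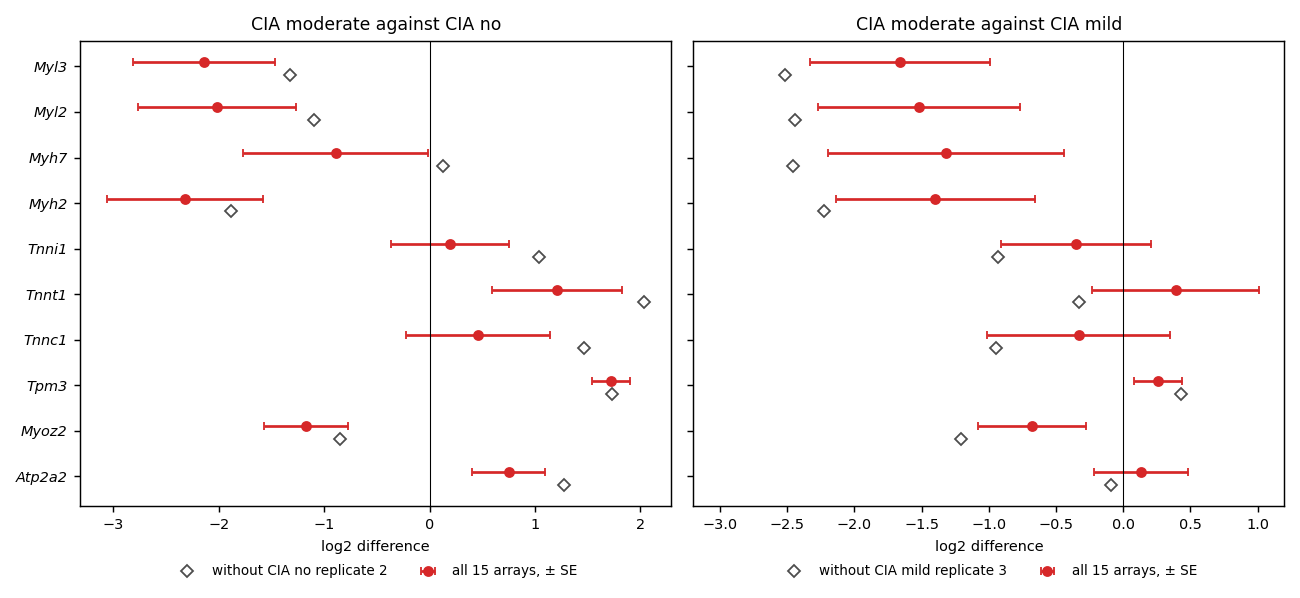
Log2 difference of each member between moderate and no swelling (left) and between moderate and mild swelling (right); filled points are the fit on all 15 arrays with its SE, open diamonds the value without replicate 2 of the joints without swelling (left) or without mild replicate 3 (right). On the left Myl3 moves from -2.14 to -1.32 and Tnnt1 from 1.21 to 2.04; on the right Myl3 moves from -1.66 to -2.52.

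Between moderate and no swelling limma called 7 of the 20 member probe sets tested higher and 5 lower, beside 26.5% and 20.2% of the 31522 probe sets tested. All 7 belonged to Tpm3 (1427260_a_at, 1427567_a_at and 1436958_x_at, by 1.72 to 1.98) and to Atp2a2 (1427250_at by 1.96 ± 0.16, 1437797_at by 1.49 ± 0.19, 1427251_at by 0.94 ± 0.20 and 1452363_a_at by 0.74 ± 0.27). All 5 Atp2a2 probe sets tested had positive differences, 1452363_a_at among them, so the order of Atp2a2 probe sets against naive joints was not that between these groups. The kind of Tpm3 probe set that was low with severe swelling was not called, at -1.03 ± 0.63 for 1449996_a_at and -0.89 ± 0.74 for 1449997_at. With mild swelling, 4 probe sets of these 2 genes were called higher than without swelling (18.4% of all), among them Atp2a2 1427250_at by 1.59 ± 0.16 (limma adjusted p = 1.47e-05) and Tpm3 1427567_a_at by 1.67 ± 0.21 (limma adjusted p = 6.13e-05). The 2 probe sets left out for their double symbol went with Myh7: 1448554_s_at read 6.5, 288 and 9.3 without swelling and 143, 155 and 3.7 with mild swelling.

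Fast-fibre genes had another course, which depended on how arrays were scaled. Against no swelling, limma called all 14 lower with mild swelling (median -0.60, but 0.18 on a scale set by the hybridization controls) and all 14 with moderate swelling (median -0.78). Mylpf fell by 0.73 ± 0.17 and Myoz1 by 0.80 ± 0.16 with mild swelling. After quantile normalization 0 and 5 were called lower (medians -0.06 and -0.13), and on the scale of the hybridization controls 0 and 1 (medians 0.18 and -0.14). That last scale moves the median of all genes to 0.71 for mild and 0.60 for moderate swelling, so relative to it the fast list is lower. From mild to moderate swelling 0 of the 14 were called (1 at an unadjusted p under 0.05), and from naive to severe swelling 3 fell, Casq1, Mylpf and Myoz1, beside 22.9% of all genes called lower (median -0.19, and 0.33 on the scale of the hybridization controls).

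Sarcomere genes shared by all fibres were mostly lower with swelling, to a degree that depended on the scaling. Between moderate and no swelling 12 of 15 were called lower and 1 higher by limma, with a median of -0.87 (-0.23 on the scale of the hybridization controls). After quantile normalization 8 were called lower, and on the scale of the hybridization controls 4. From naive to severe swelling limma called 10 of the 15 lower and 1 higher (median -0.56), and 4 lower and 1 higher on the scale of the hybridization controls (median -0.05). Between no and moderate swelling Ldb3, a Z-disc protein, fell by 2.06 ± 0.20 (limma adjusted p = 1.36e-06). In the same comparison Myom1, which links thick filaments at the M-band, fell by 1.61 ± 0.21 (limma adjusted p = 1.33e-05). Lmod2, an actin filament nucleator, rose there by 1.79 ± 0.31 (limma adjusted p = 0.00016). From mild to moderate swelling 3 were called lower, Ldb3, Cmya5 and Tmod4.

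Other genes of slow or oxidative fibres were mixed. Of 15, 8 fell and 3 rose between no and moderate swelling, with a median of -0.64 (4 lower and 4 higher on the scale of the hybridization controls, median -0.02). Cox7a1, a muscle subunit of cytochrome c oxidase, fell by 2.42 ± 0.26 (limma adjusted p = 2.26e-06) and Fabp3, a fatty acid carrier of oxidative muscle, fell by 1.82 ± 0.26 (limma adjusted p = 2.35e-05). Cox7a1 read 1862, 2721 and 3008 without swelling, 1365, 2182 and 914 with mild and 374, 578 and 418 with moderate swelling, with no overlap between the first and the last. Sln, sarcolipin, an inhibitor of the calcium pump, rose by 4.05 ± 0.59 (limma adjusted p = 3.28e-05), together with the M-band gene Myom3 (1.42 ± 0.33) and Pdlim1 (1.21 ± 0.14). Its signals were 125, 281 and 34.3 without swelling and 1957, 1625 and 2958 with moderate swelling. From mild to moderate swelling Sln (3.59 ± 0.59) and Myom3 (1.23 ± 0.33) rose and Cox7a1 fell by 1.60 ± 0.26.

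Regulators linked to the slow and oxidative programme were called lower in 10 of 13 and higher in 0 between no and moderate swelling, with a median of -0.96 (4 lower and 1 higher on the scale of the hybridization controls, median -0.41). Perm1, a muscle cofactor of oxidative metabolism, fell by 2.83 ± 0.36 (limma adjusted p = 1.04e-05), from 308, 543 and 545 without swelling to between 39.6 and 74.4 with moderate swelling. The transcription cofactor Eya1 fell by 1.97 ± 0.24 and Ppargc1a, which drives mitochondrial genes, by 1.78 ± 0.21 (limma adjusted p = 7.25e-06 and 5.96e-06). From mild to moderate swelling 6 of 13 were called lower, Perm1 among them (-1.76 ± 0.36). Rcan1, an inhibitor of calcineurin, rose with mild swelling by 1.32 ± 0.24 against none and fell by 1.15 ± 0.24 from mild to moderate. Cardiac genes passed the filter in 3 of 7: between no and moderate swelling Actc1, the cardiac actin that immature muscle also makes, fell by 2.57 ± 0.31, and Tnnt2 and Myl4 rose by 2.11 ± 0.29 and 1.40 ± 0.33.

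The genes outside the list whose levels most resembled the mean of the members over the 15 arrays were Wfs1 (r = 0.88), Miga2 (0.87), D630023F18Rik, Ldhb, Cdc37 and Atxn7l1 (0.86 each), and Cdh13 and Thap11 (0.85 each). Over the 9 arrays without naive and severe joints their r was 0.55 to 0.79. Ldhb, the lactate dehydrogenase subunit of oxidative tissue, read between 925 and 992 in naive joints, 210, 465 and 426 without swelling and 269, 393 and 187 with mild swelling, with replicate 2 the highest of each group. Moderate and severe arrays of Ldhb lay between 179 and 214. Among the members themselves, r with their own mean was 0.98 for Tnni1, 0.97 for Myh7 and Tnnc1, 0.78 for Myh2 and -0.59 for Tpm3.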

How the data were processed

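Groups were read from sample titles and source names. The deposited intensity values were computed by the authors with MAS5, per the submitters' processing notes (version not given in the sources used here). These linear intensities share a trimmed mean of 150.0 across arrays. They were used with no further scaling, as log2(signal + 16), which understates folds of dim genes. Symbols are those of the array platform's annotation in GEO, some of them possibly outdated.

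Each of 18194 genes was represented by its probe set with the highest mean log2 value, and 14310 were tested, those above the array's 40th percentile on at least 3 arrays. All 10 members passed, by 20 of their 21 probe sets. Group means over all 15 arrays were fitted with limma 3.58.1 in R 4.3.3 (empirical Bayes with an intensity trend), two-sided, with Benjamini-Hochberg adjustment over all genes and a threshold of 0.05; SE values are limma's. An exact permutation test of 3 against 3 arrays cannot give a p below 0.10.

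The members and gene lists were chosen with earlier results of these data known. Named beside the members were up to 3 genes of each list with the largest difference between moderate and no swelling, the 8 genes most like the members' mean, and genes that complete a count of 5 or fewer. The alternatives were pseudocounts of 1 and 64, other filters, 3 other scalings, other probe set rules, no trend, fewer arrays in the fit, a replicate block, array weights and leaving out each array. The fit was tested on simulated data.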

Additional observations from a re-analysis of the deposited data

How the results depend on the processing

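Over the 29 alternative settings, 813 of the single-member results in the 3 tested comparisons stayed on their side of the threshold. A further 42 gained a call and 15 lost one. The 813 include 654 uncalled values, of which 28 turned sign, and no called value did. Mild against no swelling gave 6 members higher with hybridization control scaling, 2 with the mean of probe sets and 6 with array quality weights, in place of 1. Moderate against no swelling gave 2 higher with quantile normalization, 4 with hybridization control scaling and 3 with array quality weights, in place of 1, and 2 lower in place of 4 when only arrays without, with mild and with moderate swelling were fitted. Moderate against mild swelling gave 4 members lower with hybridization control scaling and 5 with array quality weights, in place of 0. All genes called there numbered 943, and 230 with hybridization control scaling, 352 on those 9 arrays, 11 with only the groups compared and 4561 with array quality weights, whose estimate stopped before converging. The cause was not tested.

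Leaving out 1 array at a time gave 0 to 2 members lower and 1 to 5 higher for mild against no swelling, 0 to 4 lower and 1 to 5 higher for moderate against no swelling, and 0 to 5 lower and 0 higher for moderate against mild. All genes called ranged from 4089 to 5874, from 6709 to 7756 and from 196 to 2008.

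With the replicate number as a block the calls were 0 members lower and 1 higher, 4 lower and 1 higher, and 0 and 0 in the same order, as without the block, and it changed no other call of these counts. Replicate numbers did not pair the arrays: same-numbered arrays had r of -0.50 to 0.33 between their deviations (median -0.05), 5 of 30 pairs were over 0.1, and 3 of 15 arrays correlated best with their own number.

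Limits are the 3 arrays per group, the spread between arrays without and with mild swelling, the unknown origin of the arrays of a group, and a scale set on total signal.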

Other observations

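Joints without swelling also differed from naive ones in a few other markers. Summed signals of endothelial markers were 823 to 979 without swelling against 1168 to 1373 in naive joints, and those of smooth muscle markers 1713 to 2189 against 2646 to 2761. Adipocyte markers (5 of 6 with a probe set) overlapped between these groups, at 7039 to 8962 without swelling and 5045 to 7738 in naive joints. With mild swelling they summed to 3594 to 4980. Nerve and Schwann cell markers (2 of 4 with a probe set) overlapped too, at 140 to 224 without swelling and 137 to 225 in naive joints. They summed to 106 to 119 with mild swelling. These sums are descriptions of 3 arrays each and were not tested.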
